A study of Mus musculus with 9 samples.

Results

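Thyroid gene expression at 6 and 10 months of age was compared with that at 2 months in mice of 3 genotypes. All 9 arrays of the series entered the comparison: 6 later pools (6 and 10 months, 3 genotypes each) and 3 pools of 2 months. The genotypes were wild type, an E7 transgenic strain and a RET-PTC transgenic strain, and each array held RNA from 1 pool of thyroids of 1 genotype and 1 age. The E7 protein comes from human papillomavirus and inactivates the retinoblastoma protein, and RET-PTC joins the kinase domain of RET to another protein, as happens in papillary thyroid cancer. The promoter that drives each transgene, the number and sex of the mice in a pool and the hour of harvest are not stated in the labels. Of 18193 named genes, 11370 reached a log2 value of 4 on at least 3 arrays and were tested, with genotype as a factor. A change is the mean log2 value of the 6 later pools minus that of the 3 pools of 2 months, so that a change of 1 is a 2-fold rise. No pool was repeated, so the 6-month and 10-month pools of a genotype stood in for replicates and the p-values do not measure the spread between pools of one genotype and age.

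The thyroid follicle makes thyroid hormone under the control of the thyrotropin receptor, and in the adult gland its cells divide rarely. The circadian clock is a feedback loop present in most cells: the activators BMAL1 (gene Arntl), CLOCK and NPAS2 switch on the Per and Cry repressors, the REV-ERB receptors (Nr1d1, Nr1d2) and the output factors Dbp, Tef and Hlf, and these act back on the activators. Transcripts of the activators and of their targets therefore peak at opposite times of day.

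The thyroglobulin gene Tg, which defines the follicular cell, was between 14.86 and 15.28 (log2 value) on all 9 arrays, and Pax8 was between 9.42 and 10.94. Tg lay near the highest value of any array (15.56), so its narrow range is no measure of equal follicular content. Nkx2-1 was under 4 on all 9 arrays, where values are bounds and not levels. The correlation across genes was 0.964 to 0.993 between arrays of the same genotype and 0.894 to 0.932 between E7 arrays and the others. The median change over all genes tested was -0.02, and that of 9 reference genes was 0.02.

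Expression differed between the later ages and 2 months for 150 genes, of which 62 rose and 88 fell at a limma adjusted p under 0.05. These were 1.32% of all genes tested (0.545% higher and 0.774% lower). Of the 10 largest rises, 6 were of circadian clock genes, with Dbp, Per3, Per2, Tef, Nr1d1 and Hlf each up by more than 4-fold, and the clock gene Arntl showed the largest fall. Genes of cell division were among the other falls, namely Pbk, Cdk1, Spc25, Esco2, Spag5 and Tk1. With values under 4 set to 4, the change was at least 2-fold for 22 of the genes that rose and 32 of those that fell.

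All 150 genes lay on the same side of the 2-month pool of their own genotype in all 6 later pools. Over all genes tested, 9.65% were higher in all 6 pools and 13.2% were lower in all 6. For 70 of the 150 genes the 6 later pools did not overlap the 3 pools of 2 months, against 393 of the 11370 genes tested (3.46%). The 150 genes were called from these same values, so these counts describe the calls and are no separate support for them. With each array centred on its median, 77 genes were higher and 68 lower, and with quantile normalization repeated the counts were 79 and 67, so the balance of rises and falls depends on the scaling. The count rested on several pools: 22 genes passed without the E7 pool of 2 months, 31 without the E7 pool of 6 months, 33 without the RET-PTC pool of 10 months, 38 without the E7 pool of 10 months and 51 without the RET-PTC pool of 6 months. Without the wild-type pool of 2 months 33 genes were higher and 97 lower, and without the RET-PTC pool of 2 months 36 and 69. The plot of the largest changes by pool shows the genes with the largest rises and falls.

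**Figure D1:**
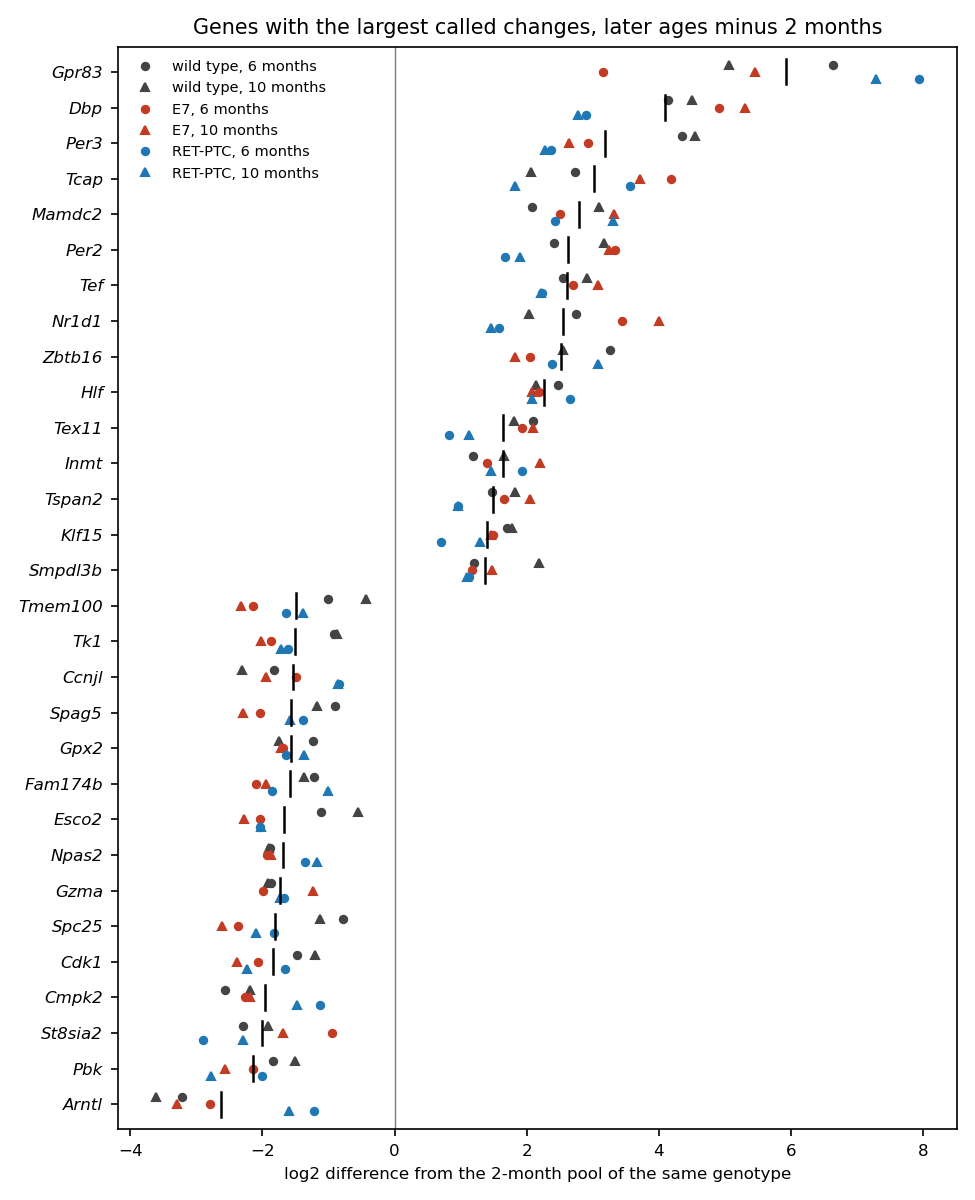
Log2 difference of each of the 6 later pools from the 2-month pool of the same genotype (horizontal axis) for the 15 called genes that rose most and the 15 that fell most. Each point is 1 pool, the bar is the mean of the 6, and all 6 points of every gene lie on one side of 0.

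The output factors of the clock rose, and Dbp had the largest change of the list. Dbp, a transcription factor that binds D-box sites and is driven directly by the clock, was at 8.95, 8.73 and 10.07 in wild-type, E7 and RET-PTC pools of 2 months. The 6-month pools of these genotypes were at 13.09, 13.64 and 12.97 and the 10-month pools at 13.45, 14.03 and 12.84. Every later pool lay above every pool of 2 months, at a mean of 13.34 ± 0.45 (SD, n = 6) against 9.25 ± 0.72 (SD, n = 3), spreads that include the differences between genotypes. The change was 4.09 (SE 0.36, adjusted p = 0.0105), which is a 17-fold rise. The related factor Tef was at 6.70, 6.89 and 6.34 at 2 months, 9.25, 9.59 and 8.57 at 6 months and 9.62, 9.97 and 8.55 at 10 months, again without overlap. Its change was 2.62 (SE 0.15, adjusted p = 0.00258). Hlf, the third member of this family, was at 5.11, 6.22 and 3.43 at 2 months and between 5.52 and 8.42 later, and its change was 2.27 (SE 0.14, adjusted p = 0.00258). The RET-PTC pool of 2 months was under 4 for Hlf, and with that value set to 4 the change was 2.08. Pools of different genotypes overlapped for Hlf, since the E7 pool of 2 months was higher than both later RET-PTC pools.

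Most repressors of the loop rose as well. Per2 was at 5.46, 5.04 and 5.32 at 2 months, 7.88, 8.38 and 6.99 at 6 months and 8.63, 8.28 and 7.23 at 10 months, a change of 2.62 (SE 0.28, adjusted p = 0.0106). Per3 was at 2.72, 6.07 and 4.67 at 2 months and between 6.95 and 9.00 later. Its change was 3.19 (SE 0.34, adjusted p = 0.0107), or 2.76 with the wild-type value of 2 months, which was under 4, set to 4. For both genes the later pools lay above all pools of 2 months. Per1 and Cry2 rose less, by 1.21 (SE 0.21, adjusted p = 0.0497) and 1.22 (SE 0.21, adjusted p = 0.044), also without overlap. Nr1d1, which encodes REV-ERBα, was at 4.67, 4.93 and 5.42 at 2 months, 7.42, 8.38 and 7.01 at 6 months and 6.70, 8.94 and 6.88 at 10 months. Its change was 2.55 (SE 0.38, adjusted p = 0.0308), and the E7 pools of 6 and 10 months were the highest. Nr1d2, which encodes REV-ERBβ, rose by 1.29 (SE 0.12, adjusted p = 0.0105).

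The activators Arntl and Npas2 fell. Arntl was at 8.90, 9.71 and 8.97 at 2 months, 5.69, 6.91 and 7.75 at 6 months and 5.29, 6.41 and 7.37 at 10 months. All later pools lay below all pools of 2 months, and the change was -2.63 (SE 0.35, adjusted p = 0.0244). Npas2, which can replace CLOCK as the partner of BMAL1, was at 5.80, 6.11 and 5.83 at 2 months, 3.92, 4.17 and 4.48 at 6 months and 3.90, 4.24 and 4.66 at 10 months. Its change was -1.69 (SE 0.13, adjusted p = 0.00837), with both later wild-type pools just under 4. Clock itself did not pass the test, at -0.56 (SE 0.13, adjusted p = 0.0783).

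In all, 9 of the 17 clock genes tested rose and 2 fell, against 0.545% and 0.774% of all genes tested. The median change of the 17 genes was 1.21, against -0.02 for all genes. Of the 17, 12 were higher and 3 lower in all 6 later pools (9.65% and 13.2% of all genes). The genes that did not pass, besides Clock, were Bhlhe40 (0.96, adjusted p = 0.0906), Usp2 (0.87, adjusted p = 0.119), Wee1 (0.65, adjusted p = 0.2), Cry1 (-0.19, adjusted p = 0.716) and Rora (0.07, adjusted p = 0.83). The median of the list in single later pools was 0.80 and 1.69 for wild type, 1.24 and 1.26 for E7 and 0.51 and 0.998 for RET-PTC (6 and 10 months). With the hour of harvest unstated, age and time of day cannot be told apart for these genes. Leaving out 1 pool at a time left 4 to 8 clock genes higher and 1 to 3 lower, and without the E7 genotype none passed in either direction. Dbp, Tef, Hlf, Nr1d2 and Npas2 passed without any 1 pool; Per2 was lost without the E7 pool of 2 months, Per3 without that pool or the E7 pool of 6 months, and Arntl, Nr1d1, Per1 and Cry2 without any of 5 to 8 of the pools.

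**Figure D2:**
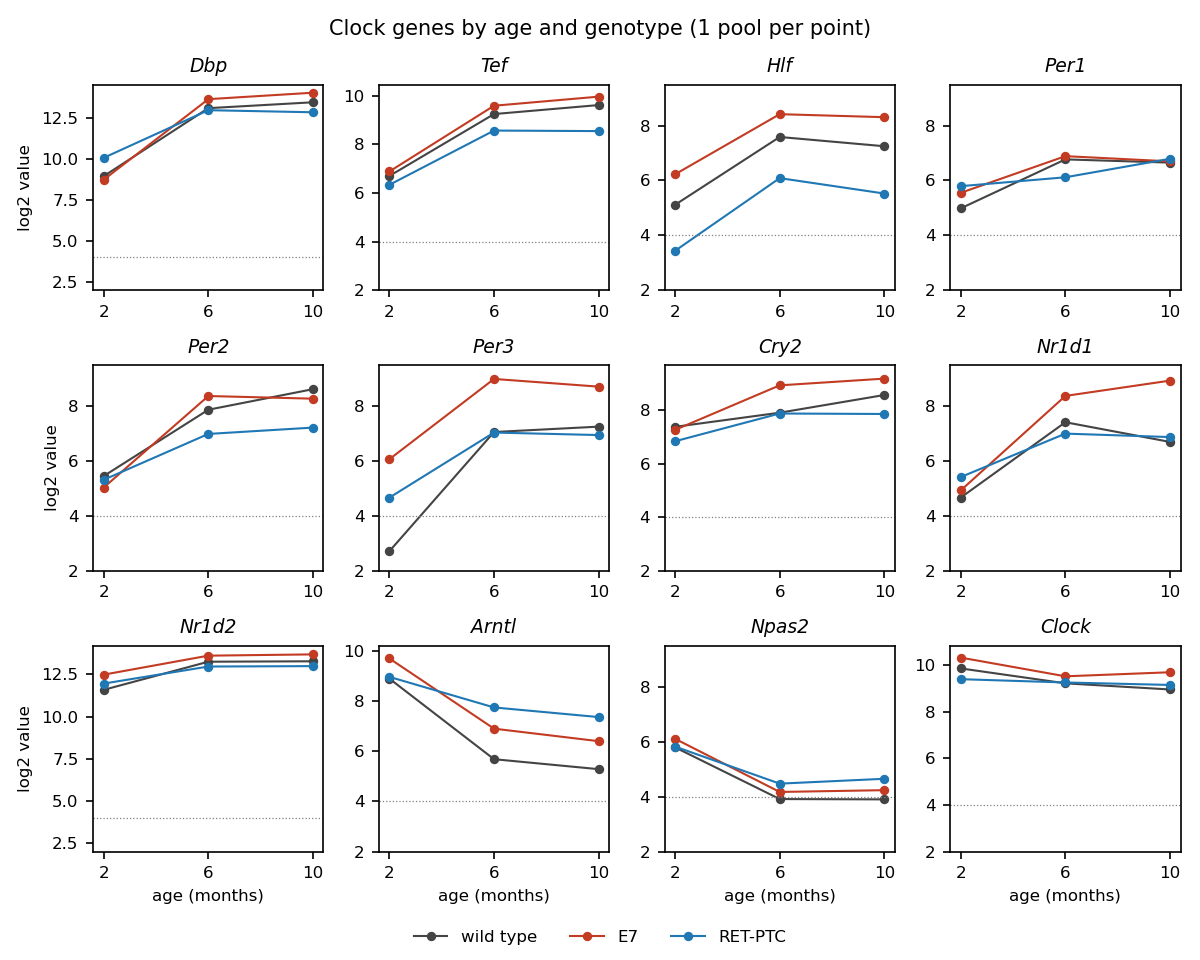
Log2 value of 12 clock genes (vertical axis) by age in months (horizontal axis), 1 line per genotype and 1 pool per point, with a dotted line at 4. The output factors, Per genes, Cry2 and Nr1d genes are lowest at 2 months in each genotype, and Arntl and Npas2 are highest there.

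The promoters of the clock genes were read for the elements through which this loop is known to act. RefSeq windows of 300 bases (250 before to 50 after the start of a transcript, build GRCm38.p6) matched 9221 of the 11370 genes tested by symbol, with 11851 windows. The E-box CACGTG, the site of BMAL1 and CLOCK, was in 1165 of these windows (9.83%). It was in 14 of 69 windows of genes that rose (20.3%) and in 6 of 91 windows of genes that fell (6.59%). D-box elements, the sites of DBP, TEF and HLF (TTATGTAA or TTATGCAA on either strand), were in 1.03% of all windows, in 4.35% of those of genes that rose and in 2.2% of those of genes that fell. The ROR element bound by REV-ERB receptors (TAGGTCA or TGGGTCA on either strand) was in 5.11%, 1.45% and 5.49% in the same order. These shares are descriptions of letters in the windows, without a test.

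Of the 9 clock genes that rose, 8 had such windows, and Per2 had none and was not searched. Dbp, Hlf, Nr1d1, Nr1d2 and Cry2 held neither E-box nor D-box letters in theirs. Of the 10 windows of these 8 genes, 3 held an E-box and 2 a D-box (9.83% and 1.03% of all windows). Per1, Per3 and Tef held these letters and are shown for that reason only. A link between the letters and the rise of the transcripts was not tested. The 250 bases before each start follow, 5′ to 3′ along the gene's strand, with the elements in capitals. Per1 (chr11:69098699-69098948, forward strand) holds an E-box at position -166 and a D-box at position -24 from 1 of its 2 starts, and the window of the other start held none of the elements. Per3 (chr4:151044666-151044915, reverse strand) holds D-boxes at positions -205 and -158. Tef has an E-box before each of its 2 starts, at position -127 of the first (chr15:81802423-81802672, forward strand) and at position -138 of the second (chr15:81811164-81811413, forward strand).
Per1: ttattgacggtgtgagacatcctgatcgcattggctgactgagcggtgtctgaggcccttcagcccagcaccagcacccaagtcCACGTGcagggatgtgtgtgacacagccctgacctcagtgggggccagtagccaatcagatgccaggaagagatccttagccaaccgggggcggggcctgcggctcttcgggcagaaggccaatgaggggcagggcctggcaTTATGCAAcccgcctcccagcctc
Per3: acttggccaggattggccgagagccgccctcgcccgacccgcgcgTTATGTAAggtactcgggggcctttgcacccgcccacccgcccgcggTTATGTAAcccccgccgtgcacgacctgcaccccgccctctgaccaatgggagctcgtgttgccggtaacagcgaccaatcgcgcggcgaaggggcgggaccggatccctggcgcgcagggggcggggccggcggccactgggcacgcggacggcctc
Tef, first start: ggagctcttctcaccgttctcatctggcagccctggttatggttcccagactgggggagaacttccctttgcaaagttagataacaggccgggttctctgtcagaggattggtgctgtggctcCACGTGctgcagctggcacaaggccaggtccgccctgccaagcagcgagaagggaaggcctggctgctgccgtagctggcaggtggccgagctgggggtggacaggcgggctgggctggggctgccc
Tef, second start: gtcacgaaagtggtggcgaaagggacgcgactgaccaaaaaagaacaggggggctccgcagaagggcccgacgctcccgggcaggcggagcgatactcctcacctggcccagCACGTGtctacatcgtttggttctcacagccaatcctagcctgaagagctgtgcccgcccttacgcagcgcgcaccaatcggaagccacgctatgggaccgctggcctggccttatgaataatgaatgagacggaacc
Arntl, which fell, holds a ROR element that begins at base 31 after 1 of its starts (chr7:113207530-113207559, forward strand), shown with its neighbouring bases.
Arntl: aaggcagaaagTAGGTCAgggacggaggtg

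Outside the clock list, the largest rise was that of Gpr83, a G-protein-coupled receptor first described as induced by glucocorticoids. Gpr83 was at 2.25, 2.27 and 2.25 in the wild-type, E7 and RET-PTC pools of 2 months, all under 4, and at 8.89, 5.43 and 10.19 at 6 months and 7.31, 7.74 and 9.54 at 10 months. The later level was at least 18.2-fold higher (adjusted p = 0.0182), and among the later pools it was highest in RET-PTC. The call was lost without the wild-type pool of 2 months, the E7 pool of 10 months or the RET-PTC pool of 10 months. Zbtb16, a zinc-finger factor that glucocorticoids induce in many cells, was at 6.74, 7.96 and 6.50 at 2 months and between 8.89 and 10.01 later, a change of 2.53 (SE 0.25, adjusted p = 0.0106) without overlap. Klf15, another factor that glucocorticoids induce, rose by 1.41 (SE 0.17, adjusted p = 0.0168). The call of Klf15 was lost without the E7 pool of 2, 6 or 10 months or the RET-PTC pool of 10 months. Tsc22d3, which encodes the glucocorticoid-induced leucine zipper and was named after its values were seen, rose by 1.18 (SE 0.16, adjusted p = 0.0258). These genes come from those called, and no list of glucocorticoid-induced genes was examined. Whether other such genes rose or fell is not shown, and a part of glucocorticoids was not tested.

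Of the remaining large rises, Mamdc2 was at 5.38, 3.65 and 4.32 at 2 months and between 6.16 and 8.47 later, a change of 2.79 (SE 0.30, adjusted p = 0.0107). Tex11, known as a meiotic gene, rose by 1.65 (SE 0.20, adjusted p = 0.0182). Inmt, which encodes an indolethylamine methyltransferase, rose by 1.64 (SE 0.21, adjusted p = 0.0206), with levels that ranged from 9.68 and 10.15 in later wild-type pools to 5.39 and 6.19 in later E7 pools. Tspan2, a tetraspanin, rose by 1.49 (SE 0.18, adjusted p = 0.0182), and Smpdl3b, a lipid phosphodiesterase, by 1.38 (SE 0.22, adjusted p = 0.037). Each of these calls was lost without the E7 pool of 2 months; for Mamdc2 this was the only pool whose removal did so.

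Tcap, which encodes the titin cap of striated muscle, was at 5.28, 2.23 and 4.59 at 2 months and between 5.94 and 8.16 later. Its change was 3.01 (SE 0.43, adjusted p = 0.0284), or 2.42 with the E7 pool of 2 months, which was under 4, set to 4. The call of Tcap was kept in only 2 of the 9 fits that each left out 1 pool, and was lost without any 1 genotype. Of 21 genes of skeletal muscle tested, a tissue that lies against the thyroid, 0 passed. Their median change was 1.57, with medians in single later pools from 0.08 (wild type, 10 months) to 3.81 (E7, 6 months), and 10 of the 21 were higher in all 6 later pools (9.65% of all genes). Acta1, skeletal muscle actin, was at 9.26, 6.07 and 9.27 at 2 months, 10.22, 10.35 and 11.40 at 6 months and 9.83, 9.64 and 10.05 at 10 months. The summed level of the list (log2 of the sum of unlogged values) was 12.90, 10.00 and 12.84 in the wild-type, E7 and RET-PTC pools of 2 months and 12.69 to 14.60 in the later pools. The E7 pool of 2 months was the lowest of all 9, and within genotypes the median change was 0.50 for wild type, 3.26 for E7 and 1.16 for RET-PTC. The part of muscle RNA in the change of Tcap was not tested, and in pooled tissue fewer cells of a type and less RNA per cell cannot be told apart.

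Several genes of cell division fell at the later ages. Cdk1, the kinase that drives entry into mitosis, was at 5.76, 9.45 and 7.55 in wild-type, E7 and RET-PTC pools of 2 months, 4.29, 7.39 and 5.89 at 6 months and 4.55, 7.06 and 5.31 at 10 months. It was highest in E7 at every age, and its change was -1.84 (SE 0.20, adjusted p = 0.0107). Pbk, a mitotic kinase, was at 6.78, 10.84 and 7.998 at 2 months, 4.95, 8.70 and 5.99 at 6 months and 5.27, 8.28 and 5.22 at 10 months, a change of -2.14 (SE 0.22, adjusted p = 0.0106). Pools of different genotypes overlapped for both genes, and each lay below its own 2-month pool. Both calls were lost without the E7 pool of 2 months. The kinetochore gene Spc25 changed by -1.80 (SE 0.26, adjusted p = 0.0283), the cohesin acetyltransferase Esco2 by -1.68 (adjusted p = 0.0315) and the spindle gene Spag5 by -1.57 (adjusted p = 0.02). These calls each depended on 4 or more of the 9 pools.

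Cdk1 was the only one of 30 mitosis genes tested that passed (0.774% of all genes fell). The median change of the 30 was -1.40, or -1.19 with values under 4 set to 4, and 15 of them were lower in all 6 later pools (13.2% of all genes). Mki67, the gene of the proliferation marker Ki-67, was at 7.50, 12.10 and 8.75 at 2 months, 7.24, 10.23 and 7.45 at 6 months and 7.26, 9.78 and 6.13 at 10 months, and its change of -1.43 did not pass (adjusted p = 0.112). In its wild-type pools the later values differed little from that of 2 months, while in E7 and RET-PTC they were lower. Cenpf, a kinetochore gene, had the largest change of the list without passing, at -1.88 (SE 0.45, adjusted p = 0.0837). The median change of the list was -0.19 for wild type, -2.25 for E7 and -1.88 for RET-PTC.

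In the test of the difference between genotypes, 0 of the 30 mitosis genes passed for either transgenic strain against wild type. With values under 4 set to 4, 18 genes passed for E7 against wild type, of which 16 changed more negatively in E7. Mitosis genes were 6 of the 18 (Aurka, Kif20a, Ndc80, Prc1, Tpx2 and Ttk). This depended on the setting: without a filter on low values, 2 of 32 mitosis genes passed for E7 against wild type. With a log2 value of at least 6 asked for, 0 of 19 passed. None passed with each array centred on its median or with a trended and robust variance. Among genes of DNA replication, 1 of 34 passed: Tk1, a thymidine kinase of S phase, was at 4.84, 8.34 and 5.58 at 2 months, 3.93, 6.47 and 3.96 at 6 months and 3.97, 6.32 and 3.86 at 10 months, and its change was -1.50 (SE 0.18, adjusted p = 0.0163). All later wild-type and RET-PTC pools were under 4 for Tk1, and with values under 4 set to 4 its change was -1.45. The call of Tk1 was kept in 5 of the 9 fits that each left out 1 pool. The median of the replication list was -0.51, and 11 of 34 were lower in all 6 later pools (13.2% of all genes). Further genes of the cell cycle that are in neither list fell, and were grouped after their values were seen: Spdl1 (-1.35) and Tubg1 (-1.20) of the spindle, Pole2 (-1.04) and Gmnn (-0.67) of replication, Ube2t (-0.94) of DNA repair, and Dut (-0.60) of nucleotide synthesis.

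**Figure D3:**
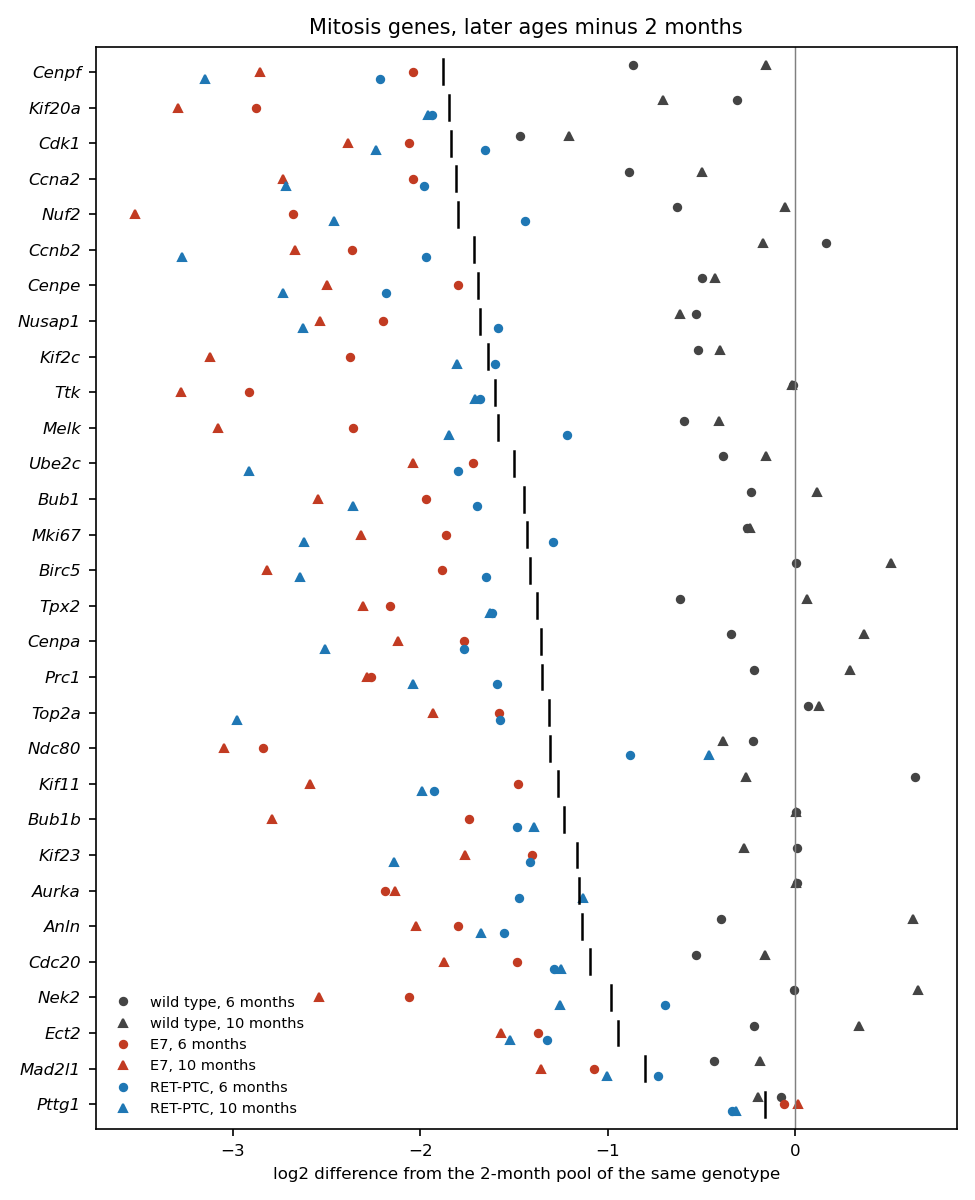
Log2 difference of each later pool from the 2-month pool of the same genotype (horizontal axis) for the 30 mitosis genes tested, with the bar at the mean of the 6 pools. E7 and RET-PTC points lie mostly between -1 and -3, wild-type points mostly near 0, and only Cdk1 passed the test.

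Of the genes of thyroid hormone synthesis, only that of the thyrotropin receptor passed the test as lower, and none passed as higher. Tshr, the thyrotropin receptor, was at 8.98, 8.37 and 9.18 at 2 months, 8.06, 7.60 and 8.14 at 6 months and 7.97, 7.64 and 8.70 at 10 months, and its change was -0.82 (SE 0.13, adjusted p = 0.032). The RET-PTC pool of 10 months lay above the E7 pool of 2 months, and the call was lost without any of 8 of the 9 pools. It was the only one of 18 genes of thyroid hormone synthesis that passed, and the median of that list was -0.13. Of the 18 genes, 6 were lower and 1 was higher in all 6 later pools (13.2% and 9.65% of all genes). Slc5a5, the sodium-iodide symporter, was at 8.77, 8.93 and 7.61 at 2 months, 8.23, 5.94 and 4.35 at 6 months and 7.50, 4.69 and 6.87 at 10 months. Its change of -2.17 (SE 0.67) did not pass (adjusted p = 0.134). The E7 pools of 6 and 10 months and the RET-PTC pool of 6 months were the lowest. Dio2, a deiodinase, had a change of -0.85 (adjusted p = 0.0957).

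Genes of the stroma and of nerve were among the called falls and rises. Postn, a matrix protein of growing connective tissue, fell from 10.46, 10.59 and 11.59 at 2 months to between 9.65 and 10.03 later, a change of -1.05 (SE 0.19, adjusted p = 0.0497). Tnc, the matrix glycoprotein tenascin C, rose by 0.86 (SE 0.15, adjusted p = 0.0461). These were the only 2 of 36 matrix genes that passed, and the median of the list was -0.12. Ncmap, a myelin protein of peripheral nerve, was at 6.85, 6.76 and 7.75 at 2 months and between 5.07 and 6.84 later, a change of -1.28 (SE 0.12, adjusted p = 0.0105), and Cnp, also of myelin, changed by -0.40 (SE 0.07, adjusted p = 0.0497). Of 6 Schwann cell genes these 2 passed, and Mbp went the other way at 0.51 without passing (adjusted p = 0.0859). Myl9, a myosin light chain of smooth muscle, changed by -0.56 (SE 0.08, adjusted p = 0.0283), as 1 of 13 genes of pericytes and smooth muscle. Cxcl12, a chemokine of stromal cells, changed by -0.75 (SE 0.11, adjusted p = 0.0315). Mest, an imprinted gene of growing tissue, was at 10.09, 5.14 and 10.89 at 2 months, 9.21, 3.62 and 9.23 at 6 months and 8.58, 3.69 and 9.29 at 10 months, a change of -1.44 (SE 0.15, adjusted p = 0.0106). It was the only one of 18 imprinted and growth genes that passed, and was lost without the E7 pool of 2 months. The calls of Postn, Tnc and Cnp were lost without any 1 of the 9 pools, and those of Myl9 and Cxcl12 without any of 7 pools. That of Ncmap was kept without any 1 pool but lost without any 1 genotype.

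Among the other large falls, Gpx2, a glutathione peroxidase of epithelia, was at 11.89, 10.87 and 10.64 at 2 months and between 9.00 and 10.66 later. Its change of -1.57 (SE 0.13, adjusted p = 0.0088) was kept without any 1 pool but lost without the E7 or the RET-PTC genotype. Fam174b changed by -1.58 (SE 0.21, adjusted p = 0.0231), Ccnjl, a cyclin J-like gene, by -1.54 (adjusted p = 0.0315) and Tmem100, a membrane protein of endothelium, by -1.49 (adjusted p = 0.0497). St8sia2, a polysialyltransferase of developing tissue, was at 5.53, 3.60 and 7.39 at 2 months and between 1.92 and 5.10 later. Its change was -2.01 (SE 0.28, adjusted p = 0.0256), or -1.38 with the 5 values under 4 set to 4. The calls of these 4 genes each depended on 4 or more of the pools. Gzma, a granzyme of cytotoxic T and natural killer cells, was at 7.38, 6.24 and 7.30 at 2 months, 5.51, 4.26 and 5.63 at 6 months and 5.47, 5.01 and 5.57 at 10 months. All later pools lay below all pools of 2 months. The change of -1.73 (SE 0.16, adjusted p = 0.0105) was kept without any 1 pool but lost without the wild-type or the RET-PTC genotype. It was the only one of 9 T and natural killer cell genes that passed: the median of the list was 0.15 and its summed level was 8.13 to 10.09 at 2 months and 8.99 to 10.12 later.

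Cmpk2, a nucleotide kinase induced by interferon, was at 10.35, 10.02 and 9.06 at 2 months, 7.79, 7.75 and 7.94 at 6 months and 8.15, 7.82 and 7.59 at 10 months. The later pools did not overlap those of 2 months, and the change was -1.97 (SE 0.21, adjusted p = 0.0106). The call was lost without the E7 pool of 2 months. Oasl1, a second interferon-induced gene, named after its values were seen, was at 4.36, 4.18 and 4.86 at 2 months and under 4 in all 6 later pools. The level at 2 months was at least 1.38-fold higher (adjusted p = 0.0153). On the list of interferon response genes, 0 of 25 passed, the median change was -0.49 and 12 were lower in all 6 later pools (13.2% of all genes). The closest to the threshold was Rsad2, at 10.21, 9.86 and 9.57 at 2 months, 8.91, 8.87 and 8.66 at 6 months and 9.75, 8.98 and 8.23 at 10 months (change -0.98, adjusted p = 0.0573). The median of the list was -0.55 for wild type, -0.18 for E7 and -0.85 for RET-PTC.

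The remaining lists held 1 called gene or none. For chaperones of the unfolded protein response, 0 of 21 passed, the median was -0.33 and 12 were lower in all 6 later pools (13.2% of all genes). Sdf2l1 had the largest change of this list (-1.35, adjusted p = 0.0918). Heat shock genes had a median of 0.13, and Hspa1b, an inducible HSP70, was the only one of 14 that passed, at 0.70 (SE 0.12, adjusted p = 0.0437); this call was lost without any 1 pool. For markers of the calcitonin-producing C cells, 0 of 10 passed, the median was -0.74 and 7 were lower in all 6 later pools (13.2% of all genes). Chgb, chromogranin B, was at 9.60, 4.61 and 7.48 at 2 months, 9.30, 3.14 and 6.93 at 6 months and 8.44, 3.27 and 6.12 at 10 months. The E7 pools of 6 and 10 months were under 4 for this gene, and its change of -1.03 did not pass (adjusted p = 0.085). Chga, chromogranin A, went the other way in E7, at 9.02, 10.64 and 11.82 at 2, 6 and 10 months. It was at 14.29, 13.98 and 13.52 in wild type and at 13.74, 13.95 and 13.73 in RET-PTC. The summed level of the C-cell list rose with age in E7, at 11.33, 11.63 and 12.29. It fell in wild type (15.35, 15.17 and 14.71) and in RET-PTC (14.68, 14.57 and 14.38). Of 26 macrophage genes 0 passed, with a median of 0.52 and within genotypes 0.66 for wild type, 1.22 for E7 and -0.43 for RET-PTC.

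None of the sex-linked genes described here passed the test, but their levels had the same order in every genotype. The Y-linked genes Kdm5d, Uty and Eif2s3y were lower and Xist, the RNA of the inactive X chromosome, was higher in all 6 later pools than in the 2-month pool of the same genotype. Kdm5d was at 6.34, 7.87 and 7.48 in wild-type, E7 and RET-PTC pools of 2 months, 5.95, 5.92 and 5.09 at 6 months and 3.78, 6.77 and 4.33 at 10 months. Xist was at 10.75, 10.64 and 10.63 at 2 months, 10.91, 12.50 and 11.45 at 6 months and 11.52, 12.03 and 11.58 at 10 months. The changes were 0.99 (SE 0.23, adjusted p = 0.0843) for Xist, -1.92 (SE 0.50, adjusted p = 0.0972) for Kdm5d, -1.87 (SE 0.52, adjusted p = 0.107) for Uty and -1.80 (SE 0.51, adjusted p = 0.112) for Eif2s3y. All 3 probe sets of Xist were higher in all 6 pools, and 2 of the 4 of Uty were lower in all 6. For 1 Xist probe set the wild-type pools were nearly level, at 5.598 at 2 months and 5.602 at 10 months. The wild-type pool of 10 months had the lowest Kdm5d, and the E7 pool of 6 months had the highest Xist. Since the sex of the pooled mice was not given, sex makeup and age cannot be told apart for any gene reported here.

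**Figure D4:**
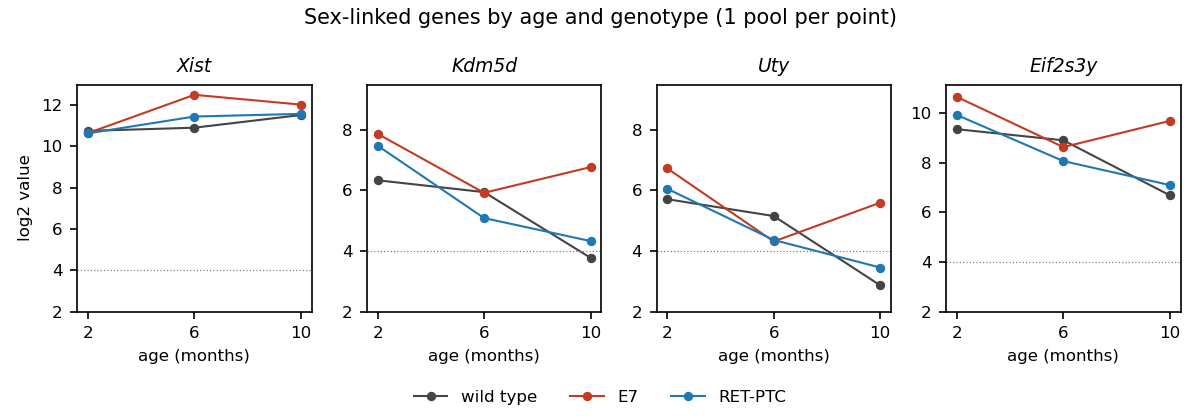
Log2 value of Xist and of 3 Y-linked genes (vertical axis) by age in months (horizontal axis), 1 line per genotype and 1 pool per point, with a dotted line at 4. In each genotype Xist is lowest and the Y-linked genes are highest at 2 months.

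Within single genotypes the later pools differed from the 2-month pool for 5 genes in wild type (0.044% of genes tested), for 362 genes in the E7 strain (3.18%: 131 higher, 1.15%, and 231 lower, 2.03%) and for 24 genes in the RET-PTC strain (0.211%). Of the 5 wild-type genes, 4 were clock genes: Dbp (4.32), Per3 (4.45), Nr1d2 (1.68) and Npas2 (-1.89). Clock genes numbered 10 of the 362 in E7 and 3 of the 24 in RET-PTC (Dbp, Per3 and Tef). In E7, 14 mitosis and 12 replication genes were among the 362, against 0 and 1 in RET-PTC and 0 and 0 in wild type. Each genotype's own change rests on 1 pool of 2 months. These counts do not test whether genotypes differ.

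The difference itself passed for few genes. No gene, 0 of 11370, passed with limma for E7 minus wild type, where 1228 had an unadjusted p under 0.05 (10.8%). There were 3 calls for RET-PTC minus wild type (0.0264%, with 780 genes or 6.86% at an unadjusted p under 0.05), 3 for RET-PTC minus E7 (0.0264%, with 1526 or 13.4%) and 2 in the joint test (0.0176%). No clock gene was among them. The change of Dbp was 4.32 for wild type, 5.11 for E7 and 2.84 for RET-PTC, and the RET-PTC minus E7 difference of -2.27 (SE 0.33) did not pass (adjusted p = 0.132). The corresponding values of Arntl were -3.42, -3.05 and -1.41, with a RET-PTC minus E7 difference of 1.64 (SE 0.42, adjusted p = 0.258).

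A2m, the protease inhibitor alpha-2-macroglobulin, was at 8.94 in the RET-PTC pool of 2 months and at 4.42 and 4.31 at 6 and 10 months, and was under 4 in every wild-type and E7 pool. Its change in RET-PTC was -4.58 (SE 0.12), and it differed from wild type by -4.55 (adjusted p = 0.00585), or -4.58 with values under 4 set to 4. Csn2, the milk protein beta-casein, went the other way. It was at 5.42 in the RET-PTC pool of 2 months and at 11.31 and 11.10 later, and was under 4 in every pool of the other genotypes. The RET-PTC change was 5.79 (SE 0.22), and the difference from wild type was 5.12 (adjusted p = 0.0262), or 5.79 with values under 4 set to 4. Ltf, the secreted iron-binding lactoferrin, was at 7.80, 4.57 and 3.95 in RET-PTC at 2, 6 and 10 months and at 2.80, 5.48 and 5.50 in wild type. The later pools thus lay below the 2-month pool in RET-PTC and above it in wild type, with a difference of -6.23 (adjusted p = 0.0262), or -5.01 with values under 4 set to 4 (adjusted p = 0.0454). Cd36, a fatty acid transporter, was at 7.62, 9.15 and 9.17 in E7 and at 10.66, 9.88 and 9.86 in RET-PTC, a difference of -2.33 (adjusted p = 0.0441). None of the 4 passed in the comparison over all genotypes. A2m and Csn2 passed the filter on low values only through their RET-PTC pools. Part of the spread behind their SE and adjusted p comes from pools under 4, whose values are bounds. Setting those values to 4 removes that part of the spread, so it is no separate check of these 2 genes.

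**Figure D5:**
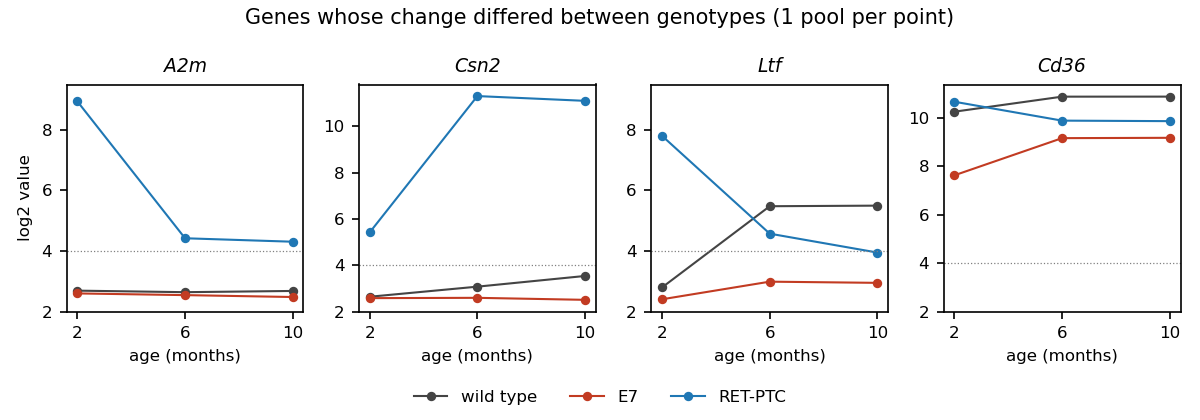
Log2 value of the 4 genes whose change from 2 months differed between genotypes (vertical axis) by age in months (horizontal axis), 1 line per genotype and 1 pool per point, with a dotted line at 4. A2m and Csn2 are above 4 in RET-PTC pools only, and the RET-PTC line runs against the wild-type line for Ltf.

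With the later ages taken apart, 9 genes passed at 6 months (0.0792%: 3 higher, 0.0264%, and 6 lower, 0.0528%) and 34 at 10 months (0.299%: 16 higher, 0.141%, and 18 lower, 0.158%), both against the same 3 pools of 2 months. Of the 9 genes, 7 were among the 150, and of the 34 genes, 27. Tef, Hlf and Npas2 passed at both ages: Tef was 2.50 and 2.74 above 2 months at 6 and 10 months, Hlf 2.44 and 2.10, and Npas2 was at -1.73 and -1.65. Between 10 and 6 months 0 genes passed with limma, 367 had an unadjusted p under 0.05 (3.23%), and 0 passed with values under 4 set to 4 or with a trended, robust variance. Cdk1 was at -1.73 at 6 months and -1.95 at 10 months, passing at the later age (adjusted p = 0.0482) and not at the earlier (adjusted p = 0.0667).

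For 62 of the 150 genes, 95 further probe sets passed the filter on low values, and 92 of them moved in the direction of the probe set used. The exceptions were probe sets of Brwd1, Ptk2b and Nudt6, which were named after their values were seen.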

How the data were processed

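RNA from 9 pools of mouse thyroid was hybridised to 1 Affymetrix array each, by the manufacturer's standard procedure per the labels' protocols. The authors deposited log2 values made with GCRMA, per the submitters' processing notes; the version is not given in the sources used here. This method corrects background by probe sequence and gives all arrays nearly equal distributions, which hides any change shared by most genes. Array medians were 3.85 to 3.95, and values under 4 were treated as bounds. Of 45101 probe sets, 34945 had 1 gene symbol, 932 several, 9160 were unnamed here and 64 were controls. Each of 18193 genes was represented by its probe set with the highest mean. Symbols were checked through Entrez identifiers against RefSeq (GRCm38.p6), which changed 0 of 34741 matched.

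Later ages were compared with 2 months by limma (version 3.58.1, R version 4.3.3) with genotype as a factor and 5 residual degrees of freedom. Differences between genotypes came from the interaction (3 residual degrees of freedom), and single ages from a 3-level factor (4). P-values were adjusted by Benjamini-Hochberg over 11370 genes with a threshold of 0.05. The genes named were the 15 largest rises and 15 largest falls, the 5 smallest p for each genotype difference, up to 4 genes per list by p, all genes of lists described in full, and the sex-linked genes. The members and lists were chosen with earlier results of these data known. No list was given a test of its own. The fit was tested on simulated data. Where every array of a group was under 4 for a gene, its fold is a lower bound against 4. With 9 arrays the precision is limited throughout. Other filters, floors, probe set choices, scalings, age models and variance models were tried, and each pool and each genotype was left out in turn.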

Additional observations from a re-analysis of the deposited data

Results flagged for a closer look

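Smpdl3b stood apart in 1 of 6 later pools: the wild-type pool of 10 months was 2.20 above its 2-month pool, while the other 5 differences were 1.09 to 1.47. The gap was 0.655 of the whole range, above Dixon's critical value of 0.625 for 6 samples; chance alone flags about 1 in 20 groups, and 30 genes were examined. The change from 2 months differed between RET-PTC and wild type for A2m by -4.55, for Csn2 by 5.12 and for Ltf by -6.23 on the log2 scale, the last 2 being 5.79 and -5.01 with values under 4 set to 4. Between RET-PTC and E7 it differed for A2m by -4.49, for Cd36 by -2.33 and for Csn2 by 5.82. In the joint test of both genotype differences the limma adjusted p was 0.00847 for A2m and 0.0373 for Csn2. Each of these differences rests on 1 RET-PTC pool of 2 months. A2m and Csn2 were under 4 in every pool of the other genotypes, so their adjusted p rests in part on bounds.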

How the results depend on the processing

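The rule named 42 genes that passed, leaving out those named after their values were seen. They kept their direction in all 958 recomputed values, of which 591 were past the threshold. All 42 lay on one side of the 2-month pool of their genotype in all 6 later pools. Leaving out a pool or genotype therefore could not reverse them, and the kept direction is no further support. None of the 42 passed in every setting, and Tef and Hlf passed in 21 of 23. Counts of genes moved more. Without a filter on low values 33 genes were higher and 36 lower (62 and 88 as reported), with a log2 value of at least 6 asked for 94 were higher and 113 lower, and with values under 4 set to 4 the counts were 61 and 83. A 3-level age gave 35 and 47, array weights 40 and 53, a trended and robust variance 127 and 177, and a slope on age in months 0 and 0. Without wild type 16 were higher and 55 lower, without E7 0 and 1, and without RET-PTC 6 and 6, with fewer samples in each. Leaving out 1 pool gave 10 to 56 higher and 12 to 97 lower. Clock genes higher (9) and lower (2) became 0 and 0 with the slope, 4 and 1 without wild type, 0 and 0 without E7, and 4 and 2 without RET-PTC; 1 was lower without a filter and 1 with the filter at 6, and leaving out 1 pool gave 4 to 8 and 1 to 3. Differences of the change between genotypes depended on low values: without a filter 91 genes passed for E7 minus wild type, 38 for RET-PTC minus wild type, 113 for RET-PTC minus E7 and 116 in the joint test. With values under 4 set to 4 these were 18, 4, 29 and 21, with the filter at 6 they were 0, 0, 0 and 0, and with a trended and robust variance 8 passed for RET-PTC against E7 and 7 in the joint test. At 6 months, 17 genes passed with values under 4 set to 4, 34 with a trended and robust variance, and 0 without wild type, 0 without E7 and 0 without RET-PTC. At 10 months, 84 passed with a trended and robust variance, 9 without wild type, 0 without E7 and 4 without RET-PTC. The cause of these moves was not tested. No paired analysis was possible because each genotype and age had 1 pool and the labels carry no replicate numbers; genotype was already a factor.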
